A study of Mus musculus with 12 samples.

Results

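The aryl hydrocarbon receptor and the cytochrome P450 family 1 genes that it regulates were followed through hepatocyte differentiation in mouse. The set was given by name and not by measured values: Ahr, Arnt, Ahrr, Tiparp, Cyp1a1, Cyp1a2 and Cyp1b1, 7 genes of the 53715 listed in the count table, each matched by its symbol to a single Ensembl gene. RNA-seq covered 12 libraries of C57BL/6JOlaHsd mice in 3 groups of 4 biological replicates. Hepatoblasts were the Dlk1+ cells of E14.5 livers, pooled from several embryos, captured on magnetic beads and lysed at once. Diff. hepatocytes were such hepatoblasts after 4 days on fibronectin in a differentiation medium with serum, insulin, dexamethasone (a glucocorticoid receptor agonist) and Matrigel. Mature hepatocytes came from 8- to 12-wk-old males by collagenase perfusion and were lysed directly. No ligand of the receptor is named among the treatments. The hepatoblasts and the Diff. hepatocytes therefore share an origin but differ in culture, serum and hormone together, and the Mature hepatocytes differ from both in age and in the way they were isolated. These factors cannot be told apart from the stage of differentiation.

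AHR is a bHLH-PAS transcription factor that waits in the cytosol with HSP90 and p23. A ligand, such as a planar aromatic pollutant or a breakdown product of tryptophan, sends it to the nucleus, where it pairs with ARNT and binds xenobiotic response elements in DNA. Cyp1a1, Cyp1b1, Tiparp and Ahrr are its classic targets, and the last 2 of them encode repressors that close the loop. The CYP1 enzymes oxidise polycyclic aromatic hydrocarbons, arylamines, estrogens and the receptor's own ligands. In adult liver CYP1A2 is a constitutive enzyme, known for the oxidation of caffeine and mostly found in the hepatocytes around the central vein, whereas CYP1A1 is usually scarce until the receptor is activated.

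Cyp1a1 (chr9:57687928-57703824, plus strand) and Cyp1a2 (chr9:57676937-57683703, minus strand) lie head to head on GRCm38, and their RefSeq start sites are 13958 bases apart. The other members lie apart from them: Ahr at chr12:35497974-35535038, Arnt at chr3:95434388-95497240, Tiparp at chr3:65528410-65555518, Ahrr at chr13:74211118-74292331 and Cyp1b1 at chr17:79701537-79715061. RefSeq promoter windows of 300 bases (GRCm38.p6, 250 before the start site and 50 from it on) were at hand for 6 of the 7 members, with no entry for Ahr. The core of the xenobiotic response element, GCGTG on either strand, was in 5 of those 6 windows and in 32.4% of the 32851 windows of all genes. The windows of the neighbours Cyp1a1 and Cyp1a2, which moved in opposite directions between Diff. and Mature hepatocytes, and those of Cyp1b1 and Ahrr are shown 5′ to 3′ on the strand of the gene, with GCGTG (or its complement CACGC) and TATAAA in capitals.
Cyp1a1, chr9:57697363-57697662, plus strand: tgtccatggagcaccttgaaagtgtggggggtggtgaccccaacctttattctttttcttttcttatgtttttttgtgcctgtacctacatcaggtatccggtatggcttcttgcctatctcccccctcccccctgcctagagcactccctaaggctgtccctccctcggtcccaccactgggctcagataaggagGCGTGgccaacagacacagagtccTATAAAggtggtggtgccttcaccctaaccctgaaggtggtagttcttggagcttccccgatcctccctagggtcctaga
Cyp1a2, chr9:57683606-57683905, minus strand: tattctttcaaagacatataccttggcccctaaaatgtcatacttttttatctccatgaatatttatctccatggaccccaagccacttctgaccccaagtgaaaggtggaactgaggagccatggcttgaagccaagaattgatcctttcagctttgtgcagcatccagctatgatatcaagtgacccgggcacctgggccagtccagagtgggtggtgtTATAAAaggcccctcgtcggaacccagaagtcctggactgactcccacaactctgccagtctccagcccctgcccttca
Cyp1b1, chr17:79715012-79715311, minus strand: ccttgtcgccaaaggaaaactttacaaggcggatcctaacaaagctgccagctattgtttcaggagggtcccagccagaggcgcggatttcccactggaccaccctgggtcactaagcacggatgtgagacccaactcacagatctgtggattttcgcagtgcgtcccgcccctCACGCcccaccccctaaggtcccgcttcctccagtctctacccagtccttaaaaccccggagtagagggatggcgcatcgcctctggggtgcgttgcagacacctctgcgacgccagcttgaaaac
Ahrr, chr13:74292282-74292581, minus strand: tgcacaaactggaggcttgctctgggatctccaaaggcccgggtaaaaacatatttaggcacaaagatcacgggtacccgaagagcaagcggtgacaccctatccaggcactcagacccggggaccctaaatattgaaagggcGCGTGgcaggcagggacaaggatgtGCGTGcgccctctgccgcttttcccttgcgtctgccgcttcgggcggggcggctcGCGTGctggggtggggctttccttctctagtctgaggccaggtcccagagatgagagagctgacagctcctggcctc

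The Cyp1a1 window held GCGTG starting 54 bases before the start site and TATAAA 30 bases before it. The Cyp1a2 window held TATAAA 29 bases before the start site and lacked the core. Of all windows, 8.32% held TATAAA on the strand of the gene. The Cyp1b1 window held the core once, on the opposite strand, and Tiparp and Arnt held it once each. Ahrr held it 3 times, and one of these lay in TNGCGTG, a longer form found in 5.07% of all windows. These are matches of letters, and binding of the receptor was not measured. Sequence outside the windows, with most of the 13958 bases between the start sites of Cyp1a1 and Cyp1a2, was not searched.

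The library totals lay between 19581551 and 25216977 counts on genes. Levels are given as CPM, counts scaled to the TMM-corrected size of a library, on which a single count was worth 0.0299 to 0.0686 CPM, and levels of different genes are compared only per kilobase of exon. A gene was called when it passed edgeR's quasi-likelihood test over 17779 genes at 0.01 after Benjamini-Hochberg adjustment and its log2 fold change was beyond 1 in either direction. The sort gene Dlk1 averaged 3523 CPM in the hepatoblasts, 94.2 CPM in the Diff. hepatocytes and 4.19 CPM in the Mature hepatocytes. All 8 hepatocyte markers were called higher, and all 5 hepatoblast markers lower, in Mature hepatocytes than in hepatoblasts. Of all genes, 20.1% were called higher and 24.7% lower. In Diff. hepatocytes against hepatoblasts 5 of the 8 hepatocyte markers were called higher and 4 of the 5 hepatoblast markers lower. Over all genes the shares were 14.9% and 14.0%. Not called there were the hepatoblast marker H19 (log2 difference 0.58) and the hepatocyte markers Alb (0.09), Ttr (−0.88) and Cyp2e1 (0.20). Afp was called lower (−1.08) but still averaged 18609 CPM there, against 42.3 CPM in the Mature hepatocytes. Hepatoblasts replicate 1 stood apart: its 8 erythroid markers summed to 1799 CPM, against 207 to 363 CPM in the other hepatoblast libraries. Its 9 macrophage markers summed to 244 CPM, against 63.9 to 74.8 CPM. In bulk RNA, fewer cells of a type and less RNA per cell cannot be told apart.

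Among the 6 members tested, 3 were called in Diff. hepatocytes against hepatoblasts, where 28.9% of all genes were called. Those were Ahr, Cyp1a1 and Cyp1b1, all higher in Diff. hepatocytes (3 of 6, against 14.9% of all genes called higher), and none was called lower (14.0%). In Mature hepatocytes against hepatoblasts 4 of the 6 were called, where 44.8% of all genes were called. Ahr, Cyp1a1 and Cyp1a2 were higher (20.1% of all genes) and Tiparp was lower (24.7%). Diff. against Mature hepatocytes gave 3 called members, where 35.8% of all genes were called: Cyp1a1 and Cyp1b1 were higher in Diff. hepatocytes (20.2%) and Cyp1a2 was lower (15.6%). Ahrr passed no filter and was not tested. The comparisons share libraries, so their calls are not independent of each other.

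**Figure D1:**
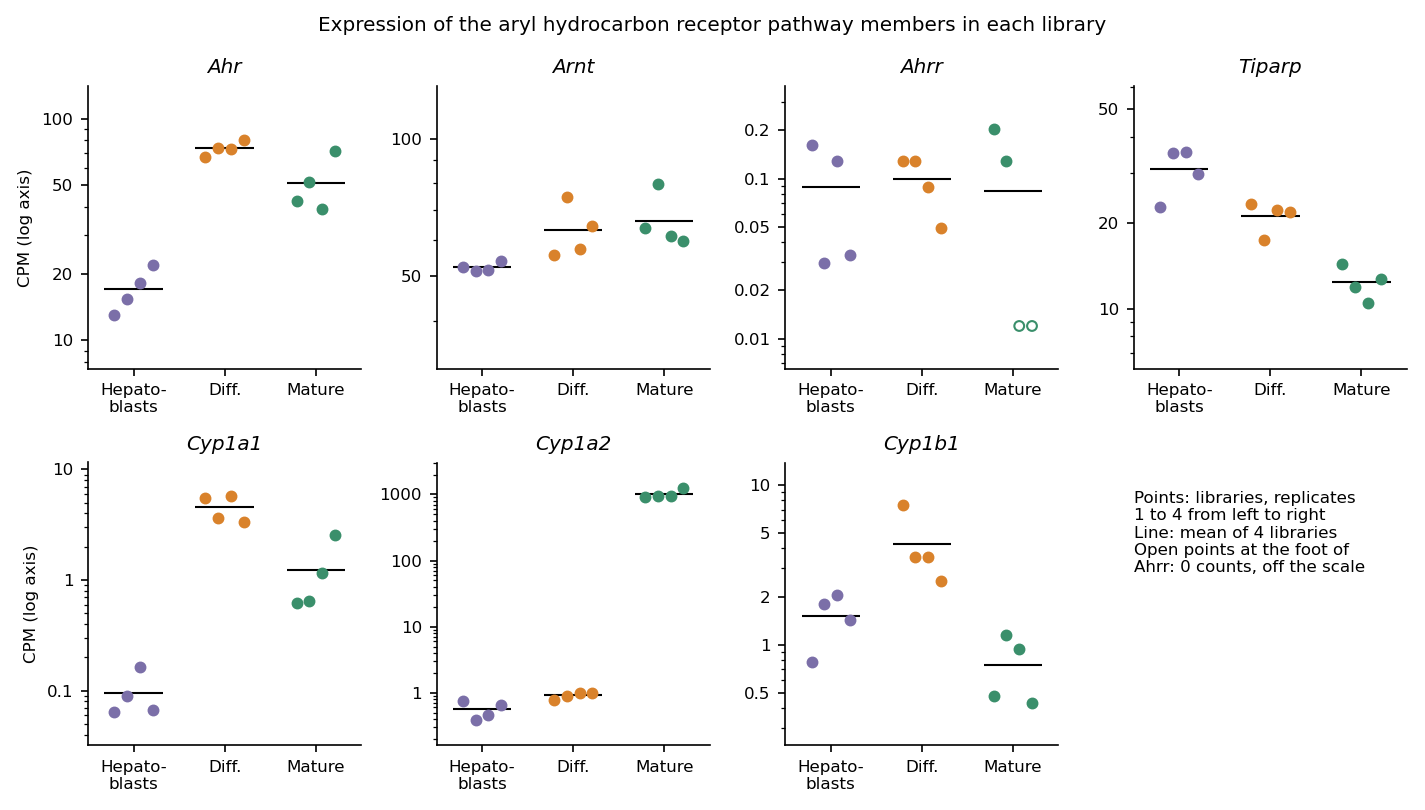
CPM of the 7 members in each library on log axes, one panel a gene, with the 4 libraries of each group as points in order of replicate number and the group mean as a line; Ahrr libraries with 0 counts are open points at the foot. Ahr, Arnt, Tiparp, Cyp1a1 and Cyp1a2 separate hepatoblasts from Mature hepatocytes without overlap, and Cyp1a2 jumps to 909 to 1269 CPM in the Mature hepatocytes. The share of all genes that separate likewise was not counted.

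Ahr, the receptor itself, was lowest in hepatoblasts. Its levels were 13.1, 15.3, 18.1 and 21.8 CPM in the hepatoblasts, 67.2, 73.4, 72.8 and 80.1 CPM in the Diff. hepatocytes, and 42.7, 51.7, 39.2 and 71.5 CPM in the Mature hepatocytes. The hepatoblast libraries were all below the libraries of the other groups, and Mature hepatocytes replicate 4 reached into the range of the Diff. hepatocytes. The means were 17.1 ± 3.77, 73.4 ± 5.26 and 51.3 ± 14.47 CPM (SD, n = 4 each). Against hepatoblasts, Ahr rose by a log2 fold change of 2.10 (SE 0.19, edgeR adjusted p = 7.38e-07) in Diff. hepatocytes and of 1.58 (SE 0.19, edgeR adjusted p = 4.83e-06) in Mature hepatocytes. The log2 difference between Diff. and Mature hepatocytes was 0.52 (95% interval 0.12 to 0.91, edgeR adjusted p = 0.0239), which was not called. On library totals, without TMM scaling, the rise in Mature hepatocytes was 0.74 and no longer called, while the difference between Diff. and Mature hepatocytes became 1.05 and was called. Ahr shares exonic sequence with Gm48236, a noncoding gene on the opposite strand, and the strand setting of the counts is not given in the sources used here.

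Arnt, the partner that the receptor needs on DNA, hardly varied. It stood at 52.3, 51.4, 51.6 and 53.9 CPM in the hepatoblasts, 55.7, 74.6, 57.3 and 64.4 CPM in the Diff. hepatocytes, and 63.6, 79.8, 61.2 and 59.7 CPM in the Mature hepatocytes. Both later groups lay above the hepatoblasts in every library and overlapped each other. The log2 differences were 0.27 (SE 0.11, edgeR adjusted p = 0.0494) for Diff. hepatocytes against hepatoblasts and 0.34 (SE 0.11, edgeR adjusted p = 0.0142) for Mature hepatocytes against hepatoblasts. Neither was called, and on library totals both had the opposite sign, at −0.055 and −0.51. Between Diff. and Mature hepatocytes the log2 difference was −0.07 (95% interval −0.31 to 0.17, edgeR adjusted p = 0.604), and it was 0.45 on library totals.

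Ratios taken within a library do not depend on the scaling of the library. Per kilobase, the level of Ahr relative to Arnt was 0.326, 0.388, 0.456 and 0.526 in the hepatoblasts, 1.57, 1.28, 1.65 and 1.61 in the Diff. hepatocytes, and 0.872, 0.842, 0.832 and 1.56 in the Mature hepatocytes. Arnt was thus the more abundant transcript in every hepatoblast library, Ahr in every Diff. hepatocyte library, and Mature hepatocytes replicate 4 stood apart from its group. The mean log2 ratio rose by 1.86 from hepatoblasts to Diff. hepatocytes and by 1.24 to Mature hepatocytes (2-sided exact permutation p = 0.0286 for each, the smallest that 4 against 4 libraries allow, and 0.0429 after Benjamini-Hochberg adjustment over the 9 ratio comparisons). With a prior of 0.1 counts both kept the exact permutation p of 0.0286, but their adjusted exact p was 0.0514 and did not pass. The adjustment over the 9 comparisons changed because Ahrr to Ahr no longer had so small a p. Between Diff. and Mature hepatocytes the difference of 0.62 did not pass (exact permutation p = 0.0571, adjusted 0.0735).

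Of the feedback repressors, Tiparp was lowest in Mature hepatocytes and Ahrr was barely counted. Tiparp, which encodes the PARP family enzyme that ADP-ribosylates AHR, measured 22.7, 35.2, 35.5 and 29.8 CPM in the hepatoblasts, 23.3, 17.5, 22.3 and 21.8 CPM in the Diff. hepatocytes, and 14.3, 11.9, 10.5 and 12.7 CPM in the Mature hepatocytes. Every Mature hepatocyte library was below every other library, while Diff. hepatocytes and hepatoblasts overlapped through Hepatoblasts replicate 1. Tiparp fell by 1.32 on the log2 scale from hepatoblasts to Mature hepatocytes (SE 0.15, edgeR adjusted p = 4.02e-06), which was not called against the fold change threshold itself (glmTreat in edgeR, adjusted p = 0.0212). The log2 difference was −0.54 for Diff. hepatocytes against hepatoblasts (SE 0.15, edgeR adjusted p = 0.00696) and 0.78 for Diff. against Mature hepatocytes (SE 0.15, edgeR adjusted p = 0.000571), both short of the fold change threshold; on library totals the latter was 1.31 and called. Tiparp shares exonic sequence with 4931440P22Rik, a transcribed pseudogene on the opposite strand.

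Ahrr, the repressor that competes with AHR for ARNT, was close to undetected. It had 5, 1, 4 and 1 counts in the hepatoblast libraries, 3, 3, 2 and 1 in the Diff. hepatocytes, and 3, 2, 0 and 0 in the Mature hepatocytes. No group stood out, and most libraries were at or under the 3 counts that a library with none would still allow, which correspond to 0.0896 to 0.206 CPM. Tested without the filter on low counts, its log2 differences were 0.16 for Diff. and −0.18 for Mature hepatocytes against hepatoblasts and 0.34 for Diff. against Mature hepatocytes, with edgeR adjusted p of 0.903, 0.923 and 0.851. A change of Ahrr was not detectable at this depth. Relative to Ahr per kilobase it was at most 0.883% in any library. The log2 of that ratio was lower in Diff. hepatocytes than in hepatoblasts, with a difference of −1.70 (2-sided exact permutation p = 0.0286, adjusted 0.0429) that did not pass with a smaller prior of 0.1 counts (adjusted 0.147), and the other differences of −1.75 and 0.05 did not pass (adjusted 0.193 and 0.971 in the exact permutation test).

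**Figure D2:**
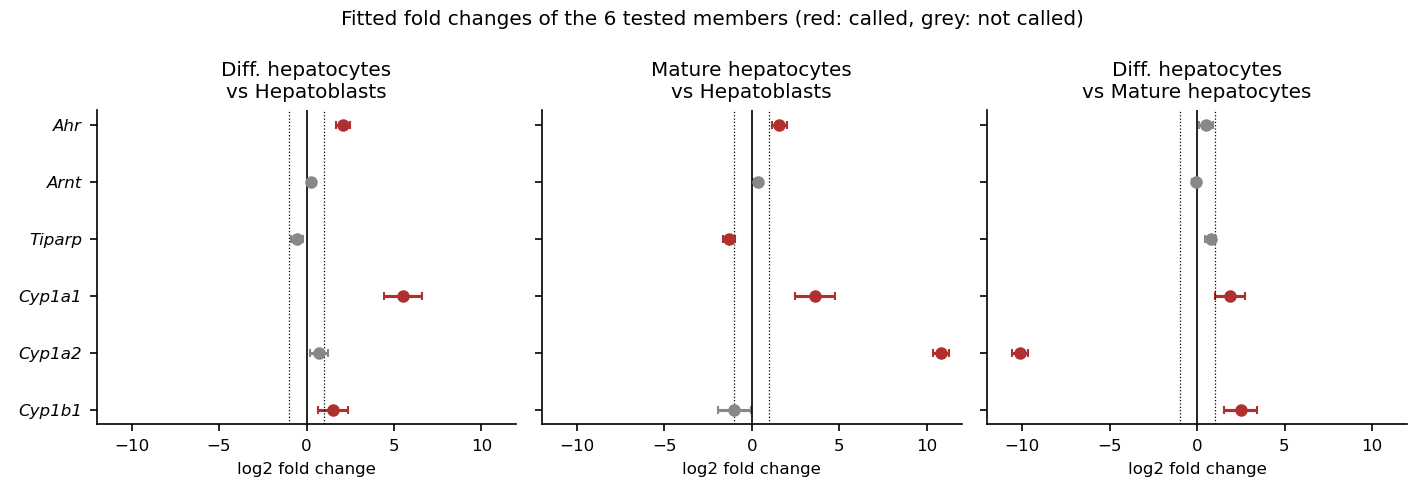
Fitted log2 fold changes of the 6 tested members with 95% intervals in the 3 comparisons; red points were called, grey points were not, and dotted lines mark the fold change threshold of 1. Cyp1a2 leads both comparisons with Mature hepatocytes, at 10.82 and −10.12, and Cyp1a1 leads Diff. hepatocytes against hepatoblasts, at 5.51.

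Cyp1a1, the inducible P450 by which activity of the receptor is usually read, was highest in the cultured cells. It had 2, 3, 5 and 2 counts in the hepatoblast libraries, which correspond to 0.0645, 0.0896, 0.162 and 0.0663 CPM. Diff. hepatocytes reached 5.53, 3.66, 5.77 and 3.35 CPM (128, 85, 130 and 68 counts), and Mature hepatocytes 0.617, 0.642, 1.17 and 2.55 CPM (9, 10, 20 and 41 counts). The groups did not overlap in any pair, although Cyp1a1 stayed a low transcript in all of them. It rose by a log2 fold change of 5.51 from hepatoblasts to Diff. hepatocytes (SE 0.51, edgeR adjusted p = 9.27e-07) and of 3.64 to Mature hepatocytes (SE 0.53, edgeR adjusted p = 3.44e-05). In Diff. hepatocytes it was higher than in Mature hepatocytes by 1.87 on the log2 scale (SE 0.40, edgeR adjusted p = 0.00111), a call that was lost when the test was made against the fold change threshold itself (glmTreat in edgeR, adjusted p = 0.0237). Mature hepatocytes replicate 4 weighed on both values, which were 3.02 against hepatoblasts and 2.48 in Diff. against Mature hepatocytes without it, each still called. Because the hepatoblasts held 12 counts in all, the summed counts give a ratio of Diff. hepatocytes to hepatoblasts of 48.2 with an exact 95% interval of 27.3 to 94.1, and of Mature hepatocytes to hepatoblasts of 13.2 with an interval of 7.16 to 26.6. These intervals cover counting error only.

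Cyp1a2 followed another course. Its levels were 0.742, 0.388, 0.453 and 0.663 CPM in the hepatoblasts, 0.778, 0.904, 0.977 and 0.986 CPM in the Diff. hepatocytes, and 909, 960, 939 and 1269 CPM in the Mature hepatocytes. Mature hepatocytes were thus far above both other groups, by summed counts 1831-fold above hepatoblasts and 1124-fold above Diff. hepatocytes (exact 95% intervals 1449 to 2349 and 904 to 1415, counting error only), and every Diff. hepatocyte library lay slightly above every hepatoblast library. The rise from hepatoblasts to Mature hepatocytes was 10.82 on the log2 scale (SE 0.22, edgeR adjusted p = 4.79e-13), from 70 counts in the 4 hepatoblast libraries to 64725 counts. The log2 difference between Diff. hepatocytes and hepatoblasts was 0.70 (SE 0.24, edgeR adjusted p = 0.0211) and was not called, and Diff. hepatocytes were lower than Mature hepatocytes by a log2 fold change of −10.12 (SE 0.21, edgeR adjusted p = 1.27e-12).

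The order of the neighbouring genes therefore turned over. Per kilobase, Cyp1a1 relative to Cyp1a2 stood at 0.0768, 0.187, 0.274 and 0.0881 in hepatoblasts and at 5.02, 2.87, 4.19 and 2.41 in Diff. hepatocytes. In Mature hepatocytes Cyp1a1 was 0.0518%, 0.0507%, 0.0921% and 0.147% of Cyp1a2. Cyp1a2 was thus the more abundant in all hepatoblast and Mature hepatocyte libraries, and Cyp1a1 in all Diff. hepatocyte libraries. The mean log2 ratio was −2.87 ± 0.88 in the hepatoblasts, 1.80 ± 0.48 in the Diff. hepatocytes and −10.34 ± 0.74 in the Mature hepatocytes (SD, n = 4 each). All 3 differences, of 4.67, −7.47 and 12.14, gave the smallest p of the exact permutation test (p = 0.0286, adjusted 0.0429). With a prior of 0.1 counts the exact permutation p stayed at 0.0286, but none passed after adjustment (0.0514). That shift came from Ahrr to Ahr, which lost its small p in the joint adjustment of the 9 ratio comparisons.

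**Figure D3:**
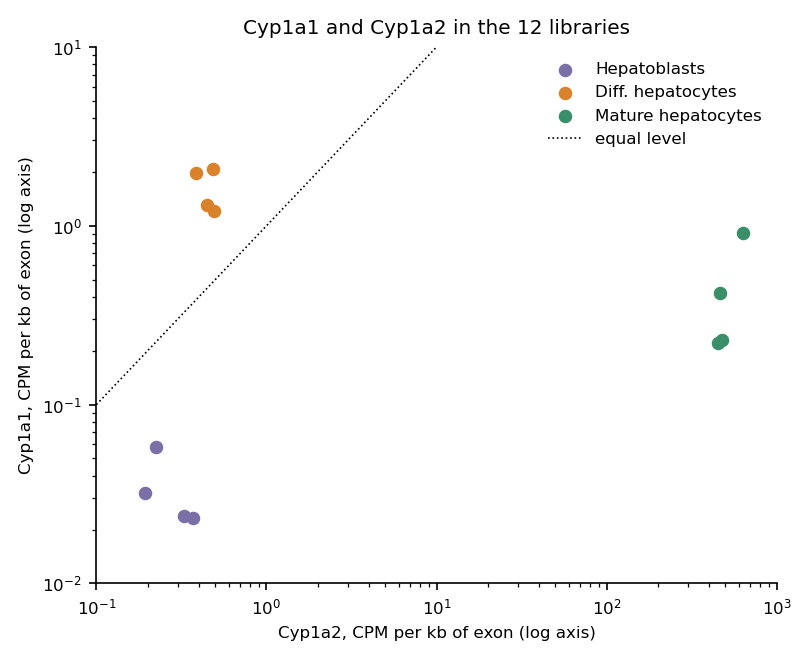
Cyp1a1 against Cyp1a2 in the 12 libraries, both as CPM per kilobase of exon on log axes, with a dotted line where the levels are equal. The Diff. hepatocytes lie above the line, the hepatoblasts below it, and the Mature hepatocytes far to the right of it.

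The coding parts of both genes share a run of 137 identical bases, in exon 2 of 7 in each gene (chr9:57700283-57700419 in Cyp1a1 and chr9:57682210-57682346 in Cyp1a2). It is printed because reads of 75 bases that fall inside it cannot be assigned to either gene.
Run shared by Cyp1a1 and Cyp1a2: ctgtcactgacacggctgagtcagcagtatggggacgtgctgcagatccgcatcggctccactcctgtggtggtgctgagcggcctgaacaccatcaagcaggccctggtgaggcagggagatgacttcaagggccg

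This run held 63 of the 75-base windows of each gene, 2.32% of those of Cyp1a1 and 3.25% of those of Cyp1a2. None of the other 5 members shared a 75-base window with another gene. The count table gives no way to see reads that matched both genes. In the Mature hepatocytes Cyp1a1 had 80 counts beside 64725 of Cyp1a2. The part of misassigned Cyp1a2 reads in those 80 counts, and so in the called rise of Cyp1a1 from hepatoblasts to Mature hepatocytes, was not tested.

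Cyp1b1 encodes the extrahepatic member of the family, an enzyme that is known from mesenchymal cells and steroid-producing tissues. It stood at 0.774, 1.79, 2.04 and 1.43 CPM in the hepatoblasts, 7.48, 3.53, 3.55 and 2.51 CPM in the Diff. hepatocytes, and 0.480, 1.16, 0.934 and 0.435 CPM in the Mature hepatocytes. Every Diff. hepatocyte library was above every other library, with Diff. hepatocytes replicate 1 far above the rest, and the other groups overlapped. It rose by a log2 fold change of 1.50 from hepatoblasts to Diff. hepatocytes (SE 0.39, edgeR adjusted p = 0.00497). Diff. hepatocytes were above Mature hepatocytes by 2.50 on the log2 scale (SE 0.44, edgeR adjusted p = 0.000213), and the log2 difference between Mature hepatocytes and hepatoblasts was −0.996 (SE 0.44, edgeR adjusted p = 0.0557), which was not called. The rise against hepatoblasts was no longer called without Hepatoblasts replicate 2 (adjusted p = 0.0101 in edgeR), without Hepatoblasts replicate 4 (0.0142) or without Diff. hepatocytes replicate 1, where it was 1.09 (0.0196). It was also lost against the fold change threshold itself (glmTreat in edgeR, adjusted p = 0.138), on library totals, at 1.20, and without replicate 1 of both groups, at 0.88 (edgeR adjusted p = 0.0221). On library totals and without replicate 1 of both groups the difference between Mature hepatocytes and hepatoblasts was called, at −1.81 and −1.21.

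Markers of mesenchymal and stellate cells moved with Cyp1b1 only in part. Of the 12 markers 4 were called higher and 1 lower in Diff. hepatocytes against hepatoblasts, with a median log2 difference of 0.71. Over all genes, 14.9% were called higher and 14.0% lower. The markers called higher were Acta2 (4.50), Thy1 (3.80), Des (1.35) and Col1a1 (1.21), and Reln was lower (−3.22). In Mature hepatocytes 9 were called lower than in hepatoblasts and 1, Lrat, higher (median −3.82), against 24.7% and 20.1% of all genes. Cyp1b1 was also lower there, at −0.996, but was not called on TMM scaling. The 12 markers summed to 1284 to 2320 CPM in the hepatoblasts, 1355 to 3049 CPM in the Diff. hepatocytes and 69.9 to 102 CPM in Mature hepatocytes, with all 12 above 3 counts in every hepatoblast and Diff. hepatocyte library and 10 to 12 in the Mature hepatocytes. Hepatoblasts replicate 1, the lowest hepatoblast library for Cyp1b1, was also the lowest for the markers, and Diff. hepatocytes replicate 1 was the highest for both. Reln made up much of the sum in hepatoblasts (864 CPM on average), and without it the markers summed to 695 to 1347 CPM in the hepatoblasts, 1239 to 2986 CPM in the Diff. hepatocytes and 53.0 to 76.6 CPM in the Mature hepatocytes. Per 1000 CPM of the 11 markers without Reln, Cyp1b1 measured 1.11, 2.33, 1.51 and 1.53 CPM in the hepatoblasts, 2.50, 2.40, 1.76 and 2.03 CPM in the Diff. hepatocytes and 7.49 to 21.0 CPM in the Mature hepatocytes. Hepatoblasts and Diff. hepatocytes overlapped on that measure, whereas with Reln in the sum they did not (0.603 to 1.04 against 1.68 to 2.45 CPM). Bile duct markers were also higher in Diff. hepatocytes: the 7 of them summed to 26.9 to 35.7 CPM in the hepatoblasts, 92.7 to 233 CPM in the Diff. hepatocytes and 37.4 to 66.0 CPM in the Mature hepatocytes. Of the 6 tested, Krt19 (4.75), Krt7 (4.74) and Epcam (3.05) were called higher in Diff. hepatocytes against hepatoblasts and 0 lower. Diff. hepatocytes replicate 1 was the highest library for this sum as well, and within its group for macrophage markers, at 139 CPM against 20.1 to 61.9 CPM. The part of any of these cells in the level of Cyp1b1 was not tested.

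**Figure D4:**
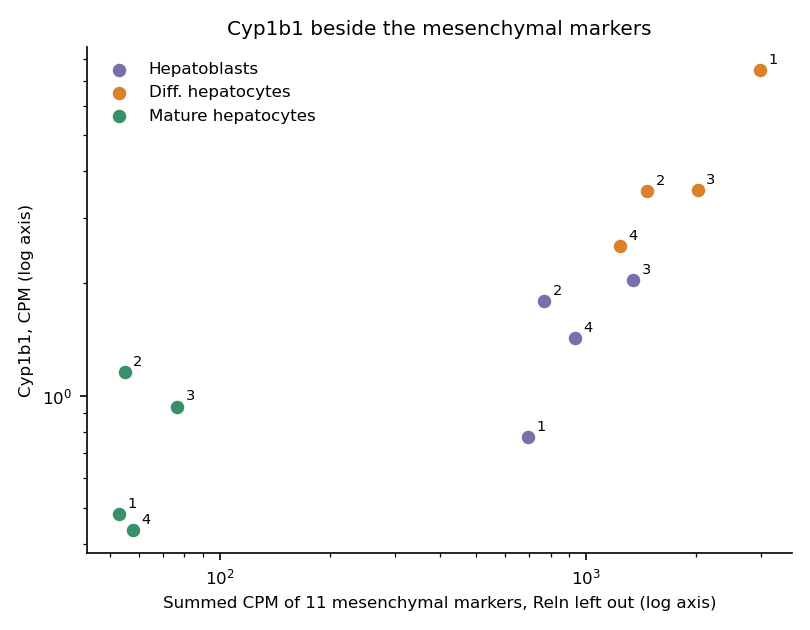
Cyp1b1 in CPM against the summed CPM of 11 mesenchymal and stellate markers (Reln left out) in the 12 libraries, on log axes, with replicate numbers beside the points. Diff. hepatocytes replicate 1 is the highest on both axes, and the Mature hepatocytes sit far to the left, at 53.0 to 76.6 CPM of markers.

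Per kilobase, the order of the members differed between the groups. In hepatoblasts Tiparp (7.07 CPM per kb) and Arnt (6.53) led with overlapping libraries, followed by Ahr (2.77), then Cyp1a2 (0.279) and Cyp1b1 (0.258), which overlapped, Cyp1a1 (0.0343) and Ahrr (0.00937). In Diff. hepatocytes Ahr came first (11.9 CPM per kb), followed by Arnt (7.87), Tiparp (4.87), Cyp1a1 (1.64), Cyp1b1 (0.731), Cyp1a2 (0.453) and Ahrr (0.0105), where Cyp1b1 overlapped with both of its neighbours. In Mature hepatocytes Cyp1a2 (506 CPM per kb) was far ahead of Ahr (8.32) and Arnt (8.25), which overlapped, and Tiparp (2.84), Cyp1a1 (0.446), Cyp1b1 (0.129) and Ahrr (0.00885) followed without overlap between neighbours.

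Of the chaperone genes of the receptor, only Hsp90aa1 was called on TMM scaling, lower in both hepatocyte groups than in hepatoblasts. Of the 7 tested genes of the complex, with Ahr, Arnt and Arnt2 included, 1 (Ahr) was called higher and 1 lower in Diff. hepatocytes against hepatoblasts. These counts are near the shares over all genes, 14.9% higher and 14.0% lower. The median log2 difference was 0.20 against −0.01 over all genes. The lower gene was Hsp90aa1, the inducible HSP90, at −1.24 (411 ± 63.2 against 175 ± 18.2 CPM, edgeR adjusted p = 0.0001). In Mature hepatocytes 1 gene was called higher and 2 lower than in hepatoblasts, against 20.1% and 24.7% of all genes. Hsp90aa1 was lower there too, at −1.56 (139 ± 39.7 CPM, edgeR adjusted p = 7.55e-06). Hsp90ab1, the constitutive HSP90, averaged 2139, 1756 and 1244 CPM in the hepatoblasts, Diff. and Mature hepatocytes, and Ptges3, which encodes p23, 78.4, 69.2 and 63.0 CPM. Neither was called in any comparison on TMM scaling, while on library totals both were called lower in Mature hepatocytes than in hepatoblasts. Arnt2, a paralog of Arnt best known from neurons, had 18 to 37 counts in hepatoblasts, 13 to 70 in Diff. hepatocytes and 0 in all Mature hepatocyte libraries, which puts it at least 4.46-fold lower there than in hepatoblasts and at least 8.07-fold lower than in Diff. hepatocytes (against 3 counts a library; both called).

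Other known targets of the receptor were mostly higher in both hepatocyte groups. Of the 5 tested, 4 were called higher and none lower in Diff. hepatocytes against hepatoblasts (median log2 difference 2.76). In Mature hepatocytes 4 were likewise called higher (median 3.35, against −0.15 over all genes). Of all genes, 14.9% and 20.1% were called higher in these comparisons. On library totals 3 of the 4 were still called in Mature hepatocytes. Nqo1, a quinone reductase that NRF2 also regulates, averaged 2.49 ± 1.45, 8.32 ± 2.20 and 8.22 ± 2.59 CPM, and its log2 fold changes against hepatoblasts were 1.74 and 1.72. The glucuronosyltransferases Ugt1a6a and Ugt1a6b rose by 2.82 and 2.76 in Diff. hepatocytes and by 3.35 and 4.18 in Mature hepatocytes. They share their last exons with the rest of the Ugt1a locus, so their split is uncertain. Gsta1, a glutathione transferase with a close paralog, had 0 counts in all hepatoblast libraries, and was at least 13.9-fold higher in Diff. and at least 20.7-fold higher in Mature hepatocytes. Nfe2l2, which encodes NRF2, was at 44.2, 70.3 and 81.4 CPM and was not called, and Aldh3a1 was too low to be tested. Between Diff. and Mature hepatocytes 1 of the 5 was called, Ugt1a6b, lower in Diff. hepatocytes by a log2 fold change of −1.42.

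**Figure D5:**
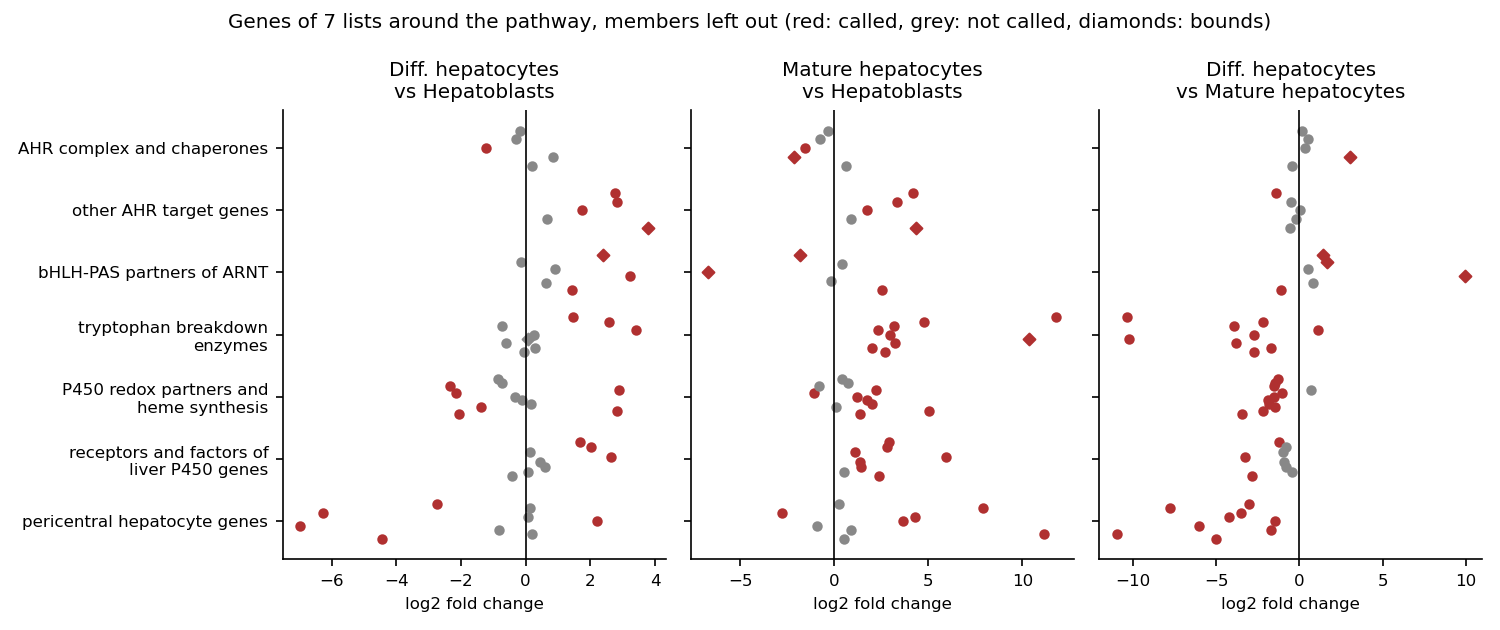
Log2 fold changes of the tested genes of 7 lists around the receptor, with the 7 members left out, in the 3 comparisons; each point is a gene, red where called, and diamonds are bounds against 3 counts a library. The other receptor targets lie to the right in both comparisons with hepatoblasts, while the tryptophan enzymes and pericentral genes lie to the left in Diff. against Mature hepatocytes with the exception of Kyat1.

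Enzymes of tryptophan breakdown, which make several ligands of the receptor, separated the hepatocyte groups. All 9 tested were called higher in Mature hepatocytes than in hepatoblasts (median 3.20), against 3 higher and none lower of 9 in Diff. hepatocytes (median 0.28). Over all genes, 20.1% and 14.9% were called higher in these comparisons. Tdo2, the liver enzyme that opens the tryptophan ring, rose from 0.583 ± 0.0873 CPM in the hepatoblasts to 1.61 ± 0.152 CPM in Diff. and 2114 ± 481 CPM in Mature hepatocytes, by log2 fold changes of 1.46 and 11.81. Ido2, its relative, had 2 counts over the hepatoblast libraries, 9 over the Diff. hepatocytes and 7955 over the Mature hepatocytes, a ratio to hepatoblasts of 7876 with a counting interval of 2180 to 65050. Kynu and Kyat1, which act on kynurenine, were the other genes called higher in Diff. hepatocytes, by 2.59 and 3.40. Afmid, Kmo, Kyat3, Aadat, Haao and Ido2 were not called there, with log2 differences between −0.73 and 2.32. Diff. hepatocytes were lower than Mature hepatocytes in 8 of the 9 (median −2.75), against 15.6% of all genes called lower. Kyat1 was higher by 1.10, with 415 ± 61.7 against 194 ± 21.4 CPM. Ido1 and Il4i1 were too low to be tested.

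Partners that compete for ARNT were split. Against hepatoblasts, 14.9% of all genes were called higher in Diff. hepatocytes and 24.7% lower in Mature hepatocytes. In Diff. hepatocytes 3 of 6 tested were called higher than in hepatoblasts and none lower: Hif3a by 3.22, Epas1 by 1.44, and Npas4, whose summed counts went from 7 to 45 (ratio 9.05, counting interval 4.05 to 23.8). Hif3a, a hypoxia-related factor, averaged 19.6 ± 16.6, 182 ± 12.1 and 0.160 ± 0.0458 CPM, with 44.4 CPM in Hepatoblasts replicate 1 against 11.2 to 11.4 CPM in the other hepatoblast libraries. In Mature hepatocytes it was called lower than in hepatoblasts, with 10 counts against 2444 (123-fold, counting interval 67.0 to 258), along with Npas3, which had 1 count there against 85. Diff. hepatocytes were above Mature hepatocytes in Hif3a, Npas3 and Npas4, and Npas4 had 0 counts in all Mature hepatocyte libraries. Epas1, which encodes HIF-2α, was called higher in Mature hepatocytes by 2.53, and it was lower in Diff. than in Mature hepatocytes by a log2 fold change of −1.09, a call lost on library totals and without replicate 1 of hepatoblasts and Diff. hepatocytes. Hif1a (49.0, 75.5 and 43.8 CPM) and Npas1 (0.215, 0.406 and 0.285 CPM) were not called in any comparison on TMM scaling, and Sim1 and Sim2 were too low to be tested. The list medians were 1.17 in Diff. and −1.83 in Mature hepatocytes against hepatoblasts, and the latter was −0.16 with the genes at 3 counts or fewer set to that floor.

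A P450 enzyme needs an electron donor and heme. Por, the reductase that serves all microsomal P450s, rose by 2.89 in Diff. hepatocytes (110 ± 14.3 to 820 ± 54.6 CPM) and by 2.20 in Mature hepatocytes, where it measured 337, 728, 295 and 661 CPM. Alas1, the rate-limiting enzyme of liver heme synthesis, rose by 2.84 in Diff. hepatocytes (30.1 ± 3.47 to 215 ± 25.1 CPM) and by 5.04 in Mature hepatocytes, where it measured 262, 1785, 846 and 1080 CPM. Both genes thus varied far more among the Mature hepatocyte libraries than in the other groups, and neither followed Cyp1a2, whose highest library was replicate 4. Of the 11 tested genes of this list 2 were called higher and 4 lower in Diff. hepatocytes against hepatoblasts (median −0.74). The shares over all genes were 14.9% higher and 14.0% lower. Alad (−2.07), Cpox (−1.38) and Ppox (−2.33), all of heme synthesis, were among those that fell. Of the hepatoblast libraries, replicate 1, with 1799 CPM of erythroid markers, held the most of these genes: Alad was at 127 CPM there and at 47.1 to 50.9 CPM in the other hepatoblast libraries. Without replicate 1 of both groups 3 were called lower, without Cpox, and the part of red cell precursors was not tested. In Mature hepatocytes 6 were called higher and 1 lower than in hepatoblasts (3 and 2 on library totals), against 20.1% and 24.7% of all genes. Diff. hepatocytes were lower than Mature hepatocytes in 10 of the 11, with Por not called (5 lower, and Por higher, on library totals). Of all genes, 15.6% were called lower there.

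Most nuclear receptors and factors that regulate liver P450 genes were higher in Mature hepatocytes. There 7 of 8 were called higher than in hepatoblasts (median 1.91, and 4 on library totals). Over all genes, 20.1% were called higher there and 14.9% in Diff. hepatocytes. In Diff. hepatocytes 3 of 8 were called higher: Nr1i3, which encodes the xenobiotic receptor CAR, by 2.65, Ppara by 2.01, and their partner Rxra by 1.69. Nr1i2 (PXR), Hnf4a, Cebpa and Nr3c1, the glucocorticoid receptor, were not called, with log2 differences between −0.42 and 0.60. Against Mature hepatocytes 3 were lower in Diff. hepatocytes, Nr1i3 (−3.28), Cebpa (−2.82) and Rxra (−1.22), and none was higher. Of all genes, 15.6% were called lower in that comparison.

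Cyp1a2 belongs to the pericentral genes, many of which Wnt signals keep on around the central vein. All 9 other genes of that list were called lower in Diff. than in Mature hepatocytes (median −4.23, and 8 of 9 on library totals). Of all genes, 15.6% were called lower. Cyp2e1, a P450 that oxidises ethanol, showed values shaped like those of Cyp1a2: 2.82 ± 0.266 CPM in the hepatoblasts, 3.24 ± 0.790 CPM in the Diff. hepatocytes and 6504 ± 2033 CPM in the Mature hepatocytes. Slc1a2 (0.691, 0.759 and 168 CPM) and Oat (46.5, 48.6 and 914 CPM), for glutamate uptake and ornithine breakdown, were likewise not called between Diff. hepatocytes and hepatoblasts. Against hepatoblasts, 1 of the 9 was called higher and 4 lower in Diff. hepatocytes (median −0.83), with 14.9% and 14.0% over all genes. The Wnt-responsive genes Lgr5, Rhbg, Axin2 and Tbx3 fell in Diff. hepatocytes against hepatoblasts, by log2 fold changes of −6.97, −6.28, −4.44 and −2.76, and Lhpp rose by 2.22. Glul, glutamine synthetase, was at 473, 267 and 885 CPM and its log2 difference of −0.83 was not called. In Mature hepatocytes against hepatoblasts Cyp2e1 (11.17), Slc1a2 (7.91), Oat (4.30) and Lhpp (3.67) were called higher and Rhbg lower (−2.75), while Glul, Axin2, Tbx3 and Lgr5 were not called; Lgr5 (−0.92) was called at −1.11 without replicate 1 of hepatoblasts and Diff. hepatocytes. Oat and Slc1a2 spread over 578 to 1407 CPM and 103 to 241 CPM among the Mature hepatocyte libraries, wider than Cyp1a2.

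Genes with the most similar pattern were sought by the Pearson correlation of log2 CPM over the 12 libraries, among 10203 genes of at least 5 CPM on average. The points fall into 3 groups, so the values describe mainly the group means. For Cyp1a2 these were Mug2 (r = 0.998; 1.05, 1.53 and 895 CPM in the hepatoblasts, Diff. and Mature hepatocytes), Nat8f2 (0.998) and Pdcd4 (0.998), and for Cyp1a1 Nipa2 (0.991; 16.3, 26.1 and 21.9 CPM), Msantd4 (0.974) and Unc13b (0.972). Ahr was most like Pgap1 (0.985), Kng2 (0.984; 29.2, 454 and 222 CPM) and Epha1 (0.982). Tiparp was most like Setd5 (0.975), Tsen15 (0.974) and Lix1l (0.970), and Cyp1b1 like Tuft1 (0.959), the collagen gene Col4a5 (0.949; 8.04, 26.9 and 2.95 CPM) and Tmem167 (0.943). Arnt, with its small range, had the weakest matches, Uvssa (0.883), the antisense gene Gm16536 (0.847) and Mkks (0.845). The low Ahrr counts allowed no search.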

How the data were processed

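Poly(A) RNA of 12 libraries (3 groups of 4 biological replicates) was read as 75-base single reads. The authors mapped reads to GRCm38 with STAR (2.5.2b in the submitters' processing notes) and counted genes of Ensembl release 92. The values they deposited are unnormalized whole-number counts of reads on each gene. Libraries were strand-specific per the study's methods, but the strand setting of the counts and any removal of duplicates are not given in the sources used here. Names, positions and exon lengths came from GENCODE M21 (53620 of 53715 identifiers found), and promoter windows from RefSeq (GRCm38.p6).

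The test was edgeR 4.0.16 under R 4.3.3, with limma 3.58.1 loaded. The 17779 genes that exceeded 10 counts in at least 1 library were kept, library sizes were TMM-scaled (factors 0.677 to 1.44), and a quasi-likelihood fit with group as its only term covered all 12 libraries. Adjusted p-values are Benjamini-Hochberg over all tested genes. Within-library ratios used a prior of 0.5 counts and a 2-sided exact permutation test over 70 assignments. Log2 CPM used a prior count of 2. Library totals of 19581551 to 25216977 counts set the precision of counting, and the intervals of ratios of summed counts cover counting error only. The intervals of log2 fold changes come from the quasi-likelihood fit and also take in the spread between replicate libraries. Libraries of a group differed by more than sampling noise, as their chi-square of 5.80 to 88.2 per gene shows.

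The members were given, and the lists were chosen, with earlier results of these data known. All members are named in full. List genes are named where called with a large change or not called, and the 3 most correlated genes are named per member. Alternatives were DESeq2 1.42.0, its size factors, library totals, filters, glmTreat, fits of 8 libraries, a replicate block, another threshold, other prior counts and leaving out each library. Leaving out replicate 1 of hepatoblasts and Diff. hepatocytes together, and the fit of Ahrr without a filter, were chosen after seeing the data. The fit was tested on simulated counts of Diff. hepatocytes against hepatoblasts, where 200 of 200 changed genes among 16165 were called, with 0 false calls. All of these genes were given fold changes well beyond the fold change threshold. Recovery of genes near that threshold was not tested. A few genes of the pathway lists enter the counts but are not reported here singly.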

Additional observations from a re-analysis of the deposited data

Results flagged for a closer look

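With 4 libraries a group, a library is listed here when its gap to the nearest other library takes up most of the range of its group (Dixon's test at its 95% critical value). Of 54 groups of values tested 4 met this, and chance gives about 2.7. Cyp1a2 was at 1268.8 CPM in Mature hepatocytes replicate 4, against 908.73 to 959.58 CPM in the other Mature hepatocyte libraries. The log2 ratio of Ahr to Arnt per kilobase was 0.6375 in the same library, against −0.2645 to −0.1969. Mature hepatocytes replicate 4 was also the highest library of its group for Ahr and Cyp1a1, at 71.5 and 2.55 CPM. In Hepatoblasts replicate 1 the erythroid markers summed to 1799 CPM, against 206.74 to 362.94 CPM, and the macrophage markers to 243.82 CPM, against 63.9 to 74.8 CPM.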

How the results depend on the processing

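Of 297 values recomputed under alternatives other than leaving out a single library, 257 were rated the same. For fold changes and ratios this means the same direction and side of the threshold. For counts of called genes, which are among these values, it means a count of similar size. Library totals without TMM factors shifted the median log2 fold change of all genes by −0.32 for Diff. and −0.85 for Mature hepatocytes against hepatoblasts and by 0.53 for Diff. against Mature hepatocytes, and the share of calls that were higher was 35.4%, 20.2% and 75.6%, against 51.5%, 44.9% and 56.4% on TMM. DESeq2's size factors shifted the medians by 0.01 at most. On library totals, Arnt reversed in the 3 comparisons (−0.055, −0.51 and 0.45), the Cyp1b1 rise in Diff. hepatocytes was 1.20 and lost, its difference between Mature hepatocytes and hepatoblasts was −1.81 and called, Ahr was 0.74 and lost in Mature hepatocytes against hepatoblasts and 1.05 and called in Diff. against Mature hepatocytes, and Tiparp was 1.31 and called there, which made 5 called members.

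With glmTreat, which tests against the fold change threshold itself, 2966 genes were called in Diff. hepatocytes against hepatoblasts and 4221 in Diff. against Mature hepatocytes, against 5145 and 6362. Lost there were Cyp1b1 in Diff. hepatocytes (1.50, edgeR adjusted p = 0.138), Tiparp in Mature hepatocytes (−1.32, 0.0212) and Cyp1a1 between Diff. and Mature hepatocytes (1.87, 0.0237). When every gene with an adjusted p below 0.05 was counted whatever its fold change, 10615, 12870 and 11580 genes were called, against 5145, 7971 and 6362. Called in addition were Arnt (0.27), Tiparp (−0.54) and Cyp1a2 (0.70) in Diff. hepatocytes against hepatoblasts (6 members), Arnt (0.34) in Mature hepatocytes against hepatoblasts, and Ahr (0.52) and Tiparp (0.78) in Diff. against Mature hepatocytes (5 members). Without replicate 1 of hepatoblasts and Diff. hepatocytes, chosen after seeing the data, Cyp1b1 was 0.88 in Diff. hepatocytes (lost) and −1.21 in Mature hepatocytes (called). The cause of these changes was not tested beyond the construction of each alternative.

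Leaving out each library in turn gave 1.09 to 1.68 for Cyp1b1 in Diff. hepatocytes against hepatoblasts and −0.17 to 0.029 for Arnt in Diff. against Mature hepatocytes (0.029 without Mature hepatocytes replicate 2). Without Mature hepatocytes replicate 4, Cyp1a1 was 3.02 in Mature hepatocytes against hepatoblasts and 2.48 in Diff. against Mature hepatocytes, against 3.64 and 1.87. Besides Cyp1b1 and Arnt, no tested member changed its call or its sign, and Ahrr, under the filter on low counts, had no fold change to compare. Called members were 2 to 3, 4 and 3 in the order of the comparisons above.

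Replicate numbers were shared by the groups, and the deviations of same-numbered libraries correlated with r of −0.08 to 0.32 over 12 pairs, 3 above 0.1. Those 3 all joined hepatoblasts with Diff. hepatocytes, which share an origin (0.324, 0.246 and 0.184 for replicates 1, 3 and 4). Replicate 2 gave −0.0589, and differently numbered libraries of these groups gave −0.352 to 0.242. The main fit did not read the numbers as pairs, and whether those libraries shared an isolation was not tested. The replicate block in edgeR changed no member's call. For the ratios, the paired sign-flip test as replicate block cannot go below an exact p of 0.125, and all 6 ratio differences passed before missed the threshold there: Cyp1a1 to Cyp1a2 (4.67, −7.47 and 12.14), Ahrr to Ahr (−1.70) and Ahr to Arnt (1.86 and 1.24). With a prior of 0.1 counts, 5 of these had an adjusted exact p of 0.0514 (4.85, −7.34, 12.20, 1.87 and 1.24) and Ahrr to Ahr was −1.68 (0.147). The exact p of those 5 stayed at its minimum, and their adjusted p rose because Ahrr to Ahr left that minimum. With a prior of 2 counts Ahrr to Ahr in Diff. against Mature hepatocytes was −0.57, against 0.05. Depth limits Ahrr and the hepatoblast values of Cyp1a1.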
